A study of Homo sapiens with 7 samples.

Results

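The introns described here belong to genes of the extracellular matrix, of the enzymes and inhibitors that remodel it, and of the integrins that bind it. They were taken from a deposited table of splicing by the symbol of the gene: a symbol that begins with COL and a digit, ITGA, ITGB, LAMA, LAMB, LAMC, ADAM, TIMP, LOX, THBS or SERPIN, or the symbol FN1. LAMB1 and ADAMTS1, with 6 introns together, were left out. The rule used no measured value, but the members were chosen with earlier results of these data known. It took 101 introns of 26 genes out of 6709 introns of 2979 genes. Of the 26 genes, 23 code for proteins and 3 are antisense RNAs named after a matrix gene beside them (ADAMTSL4-AS1, COL4A2-AS2 and LOXL1-AS1).

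Nascent RNA was measured by BrU-seq: cells were given 2 mM bromouridine for 30 min, and the labelled RNA was pulled down and sequenced. RPE1, the line used, is immortalised human retinal pigment epithelium. All groups carry the background that the labels spell iCas9 p53/puro-dKO, so the controls share it. There were 3 libraries of these cells with no further change (WT1, WT2 and WT3), 3 libraries of CFAP20-KO cells (KO1, KO2 and KO3) and 1 library of CFAP20-KO + CFAP20-GFP cells, the rescue. CFAP20 is known as a protein of cilia. The labels do not say whether a line is 1 clone or whether replicates came from separate cultures, so the spread between libraries may be technical. CFAP20 itself has 0 introns in the table, and the knockout could not be checked there.

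Fibronectin, collagens, laminins and thrombospondins are secreted and assembled outside the cell, where lysyl oxidases cross-link collagen and elastin fibres. Integrins are pairs of 1 alpha and 1 beta subunit that span the membrane and link this matrix to the cytoskeleton. ADAM proteases, TIMP inhibitors and some serpins set how much of the matrix and of the cell surface is cut. Many of these genes have long chains of introns, most of which are removed while the polymerase is still on the gene. The first intron is often the longest, and its 5′ splice site is the first to be made.

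The table gives a splice index from 0 to 1 per intron and library. The sources used here give neither its formula nor the reads behind an intron. A higher index is taken to mean more spliced RNA, which is an assumption. Of the 101 introns, 99 had a value in all 7 libraries. COL4A2-AS2 intron 2 and LOXL3 intron 10 had none in WT2. All 101 match an intron of the transcript that the table names in GENCODE 44, 91 are in the MANE Select transcript of their gene, and no introns overlap each other. The table places ADAMTSL4-AS1 intron 1 in a transcript that GENCODE 44 gives to MCL1, a regulator of cell death, so this is the 1 member whose gene is in doubt. In position, 11 are the first, 82 an internal and 8 the last intron of the named transcript. By place, 88 lie in coding parts, 5 in 5′ UTRs, 1 in a 3′ UTR and 7 in noncoding transcripts.

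The sites of the introns that the results turn on are shown first. Each 5′ site holds 3 exonic and 6 intronic bases and each 3′ site 20 intronic and 3 exonic bases, 5′ to 3′ on the strand of the gene, from hg38. Capitals mark the first 2 and the last 2 bases of the intron. The first set is FN1 introns 1, 2, 3, 8 and 9, at the start of the fibronectin transcript ENST00000323926 on the minus strand of chromosome 2 (gene at chr2:215360440-215436073), where the CFAP20-KO values of 4 of these introns lay above all WT values.
FN1 intron 1, 5′ site: agcGTgagt
FN1 intron 1, 3′ site: tttccttcaattatttgcAGccg
FN1 intron 2, 5′ site: aagGTaagt
FN1 intron 2, 3′ site: gactttccttttcccctcAGctg
FN1 intron 3, 5′ site: caaGTaagg
FN1 intron 3, 3′ site: tttcgttgtatcttcaacAGacc
FN1 intron 8, 5′ site: ctgGTgagt
FN1 intron 8, 3′ site: ttgtgtattgttcctggcAGttt
FN1 intron 9, 5′ site: ctgGTaaga
FN1 intron 9, 3′ site: tcttatccatttccaaacAGccc
They lie at chr2:215434825-215435654, chr2:215433462-215434695, chr2:215431965-215433323, chr2:215423527-215424145 and chr2:215422244-215423349, and all 5 interrupt the coding sequence.

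The second set holds 2 introns whose indices were lower in every CFAP20-KO library than in every WT library. They are LAMC1 intron 4 (chr1:183110655-183114530, plus strand, coding) and ITGA5 intron 10 (chr12:54405717-54405869, minus strand, coding).
LAMC1 intron 4, 5′ site: tgcGTgagt
LAMC1 intron 4, 3′ site: tcgtgtgttttgactgacAGcct
ITGA5 intron 10, 5′ site: cagGTaagg
ITGA5 intron 10, 3′ site: tgcccctttgtcctccccAGatg

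The third set holds sites at the ends of the range of scores. Sites were scored by the sum of log2 base weights over the introns of the table with GT and AG ends, and each score is given as its percentile among them.
THBS1 intron 1 of ENST00000397591, 5′ site: cagGTaagt
FN1 intron 44, 5′ site: ctcGTatgt
LAMB2 intron 1, 3′ site: gactgagctactgtccccAGtgc
ITGB1 intron 9, 3′ site: ataattaggcattcttttAGtcc
ADAMTSL4-AS1 intron 1, 5′ site: catGCgcca
The THBS1 site scored above 99.3% of sites, and the intron had a mean index of 0.60 over the 7 libraries. The FN1 intron 44 site scored above only 2.00% of sites, and its mean index was 0.879. The 3′ sites of LAMB2 intron 1 and ITGB1 intron 9 scored above 2.92% and 2.03%, with mean indices of 0.150 and 0.708. The ADAMTSL4-AS1 intron begins with GC in place of GT, and its index was 0 in all 7 libraries. It and LOXL2 intron 3 are the 2 members without GT and AG ends. These 5 sites were chosen after their values were seen.

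Libraries stood apart before any comparison of groups. The median index over the whole table was 0.530 in WT1 and 0.508 in KO1, and 0.642 to 0.723 in the other 5 libraries. The column names carry a number that WT1 and KO1 share, that WT2 shares with the rescue, and that WT3 shares with KO2 and KO3. It is called the run here, and what it stands for is not stated. Differences between groups by family, position and list are therefore also given within runs below. In gene body coverage, described further below, the retinal pigment epithelium marker RLBP1 ranged from 0.128 to 0.357 in WT and from 0.0166 to 0.109 in CFAP20-KO libraries, and TTR was listed at 0 in all but WT1 (0.0130). The neuronal markers MAP2 (1.1 to 2.41 in WT, 0.430 to 0.878 in CFAP20-KO) and SYT1 (1.81 to 3.98, 0.996 to 3.31) had coverage, and the haematopoietic marker CD74 had 0.0200 to 0.153 in WT and 0.0295 to 0.107 in CFAP20-KO. In the splice table, OTX2, KRT8 and KRT18 had 2, 3 and 1 introns, the mesenchymal markers VIM, PDGFRB and TAGLN had 2, 1 and 1, and the other markers had none. The part of these marker levels in the results was not tested.

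How much of each family was spliced in nascent RNA was asked first. Matrix and integrin introns had a median index of 0.688, 0.761 and 0.747 in WT1, WT2 and WT3, 0.679, 0.806 and 0.758 in KO1, KO2 and KO3, and 0.793 in the rescue. In every library this was above the median of the whole table, by the widest margin in KO1 and WT1. The mean of the WT medians was 0.732 ± 0.039 (SD, n = 3) for these introns and 0.621 ± 0.082 for all introns. Of the members, 39.6% had a mean index of at least 0.8, against 27.1% of the table, and 10.9% were under 0.2, against 14.9%. The members hold many introns of a few long genes, so this describes FN1, ITGA5 and THBS1 more than 26 genes.

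The secreted scaffold proteins fell into a high and a low set. Fibronectin (FN1, 16 introns) had WT medians of 0.818, 0.773 and 0.728 (mean 0.773 ± 0.045), and thrombospondins (15 introns of THBS1 and 1 of THBS3) had 0.797, 0.754 and 0.796 (0.782 ± 0.024). Collagens, with only COL12A1 intron 1 and COL4A2 intron 2, had 0.180, 0.443 and 0.0782 (0.234 ± 0.188). Laminins, with 4 introns, had 0.134, 0.363 and 0.119 (0.205 ± 0.137). Collagens and laminins were thus the lowest of the protein-coding families, and both were highest in the run of WT2 and the rescue, where the rescue had 0.388 and 0.335. Each of their introns is number 1, 2 or 4 of its transcript, so family and position of the intron cannot be told apart for these 2 families. Within a family the genes differed. The 3 introns of LAMB2 and LAMB3, beta chains of laminin, had mean indices of 0.150, 0.182 and 0.187, while LAMC1 intron 4, of a gamma chain, had 0.719. In the same order the beta chain introns end 0.386, 0.644 and 2.31 kb from the transcript start, and LAMC1 intron 4 ends 91.1 kb from it. Chain and position therefore cannot be told apart here. THBS3 intron 22 had 0.0566, against 0.60 to 0.929 for the 15 introns of THBS1, which encodes a secreted inhibitor of blood vessel growth.

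Among the receptors, the 34 integrin introns had WT medians of 0.602, 0.783 and 0.734 (0.706 ± 0.094). The 27 introns of the alpha subunits ITGA3, ITGA5 and ITGAE had 0.538, 0.781 and 0.716, and the 7 introns of the beta subunits ITGB1 and ITGB5 had 0.688, 0.785 and 0.779. Among the WT libraries the difference between alpha and beta subunits was widest in WT1 and near 0 in WT2. It was wider than in WT1 in KO2 (0.722 and 0.928) and KO3 (0.658 and 0.868), which share a run. In KO1 it was not (0.545 and 0.656). ITGA5 pairs with ITGB1 as the main receptor for fibronectin, and the medians of these 2 genes in WT were 0.737 ± 0.075 and 0.746 ± 0.065. ITGAE intron 27 was low, at 0.169, 0.365 and 0.219 in WT, and ITGAE intron 30 of the same transcript was at 0.435, 0.793 and 0.737.

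By the mean of the WT medians, the genes called inhibitors here (symbols that begin with TIMP or SERPIN) and the ADAM proteases ranked first. The symbol also brings in SERPINH1, a collagen chaperone, with 3 of the 14 introns. By that of CFAP20-KO, the order was ADAM proteases (0.902), thrombospondins (0.842), fibronectin (0.840) and inhibitors (0.823). TIMP and SERPIN inhibitors (14 introns) had 0.845, 0.810 and 0.876 in WT (0.844 ± 0.033), and the 3 ADAM introns had 0.783, 0.799 and 0.806 (0.796 ± 0.011). TIMP2 inhibits metalloproteinases, and its intron 2 ranged from 0.844 in KO1 to 0.976 in WT2 with a mean of 0.935. LOX cross-linkers (9 introns) had 0.421, 0.703 and 0.649 (0.591 ± 0.150). LOXL3 intron 10 was at 0 in WT1, WT3, KO3 and the rescue, and at 0.0769 and 0.0690 in KO1 and KO2. The 3 antisense introns were at 0 in every measured library for ADAMTSL4-AS1 and COL4A2-AS2, and at 0.0110 to 0.124 for LOXL1-AS1. Whether reads were assigned by strand in this table is not stated, so reads of COL4A2-AS2 and LOXL1-AS1 and of the genes they overlap cannot be told apart.

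**Figure D1:**
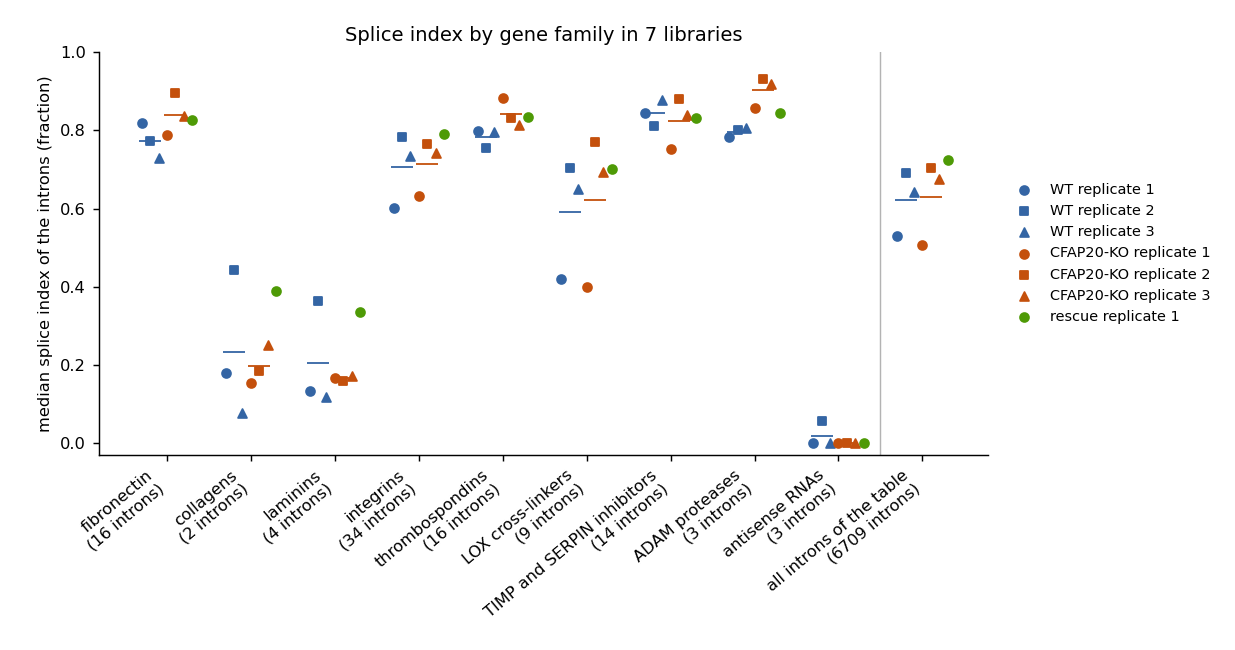
Median splice index (vertical axis, fraction from 0 to 1) of the introns of each family and of the whole table, with 1 point per library and short lines at the mean of the 3 WT and of the 3 CFAP20-KO medians. Collagens and laminins lie at 0.443 or less in all 7 libraries, and fibronectin, thrombospondins, inhibitors and ADAM proteases at 0.728 or more.

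The order of the families in WT ran from inhibitors (0.844), ADAM (0.796), thrombospondins (0.782) and fibronectin (0.773) through integrins (0.706) and LOX cross-linkers (0.591) to collagens (0.234), laminins (0.205) and antisense RNAs (0.0192). Neighbours in this order differed by less than the SD of 1 or both, except for the steps from inhibitors to ADAM, from LOX cross-linkers to collagens and from laminins to antisense RNAs. With 1 value per gene the order changed, since single genes hold most introns of some families: the WT level of thrombospondins was then 0.415, that of inhibitors 0.684 and that of ADAM proteases 0.631.

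Position in the transcript was described next. First introns of these genes had a WT median of 0.266 ± 0.058 (SD, n = 3), internal introns 0.767 ± 0.016 and last introns 0.543 ± 0.142. In the whole table the same medians were 0.383 ± 0.122 for 1278 first, 0.724 ± 0.051 for 3964 internal and 0.601 ± 0.091 for 898 last introns. First introns were thus lowest in both, in each of the 7 libraries. The medians of the 11 first introns were 0.241, 0.332 and 0.225 in WT, 0.233, 0.208 and 0.292 in CFAP20-KO and 0.454 in the rescue. Without the antisense RNAs the WT level of first introns was 0.325. By intron number, members rose from 0.266 for the first to 0.648 for numbers 2 and 3, 0.788 for numbers 4 to 9 and 0.771 from number 10, where the table had 0.337, 0.594, 0.737 and 0.805.

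The first introns were not alike. THBS1 intron 1 of ENST00000397591 had a mean index of 0.60. ADAM19, which encodes a membrane protease, had 0.423 for its 4622-base first intron, FN1 intron 1 had 0.403 and LOX intron 1 of ENST00000505593 had 0.409. SERPINH1, the collagen chaperone of the endoplasmic reticulum, had 0.351 for intron 1 of ENST00000524558, and COL12A1 and LAMB2 both had 0.150. ITGA5 intron 1 of ENST00000547744, a noncoding transcript, was at 0 in all 7 libraries. Of the 11 members with a mean index under 0.2, 5 were first, 4 internal and 2 last introns.

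The index also differed by named transcript, which goes together with position: of the 10 introns outside MANE Select transcripts, all but ITGB1 intron 3 of ENST00000472147 are first or last introns, so the effects of transcript and position cannot be told apart. The 91 introns of MANE Select transcripts had a WT median of 0.764 ± 0.014 and the other 10 had 0.272 ± 0.046, against 0.699 ± 0.0625 and 0.25 ± 0.092 in the table. Among last introns, those of FN1, THBS1 and ITGAE had mean indices of 0.871, 0.774 and 0.692. The last introns of the short noncoding transcripts of ITGA5 and ITGAE had 0.353 and 0.00664, and that of SERPINH1, in a 3′ UTR of ENST00000649490, had 0.457. THBS3 intron 22 was the exception among MANE Select last introns, at 0.0566. With the 5 MANE Select introns alone the WT level of last introns was 0.776, beside 0.767 for the 81 internal ones.

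**Figure D2:**
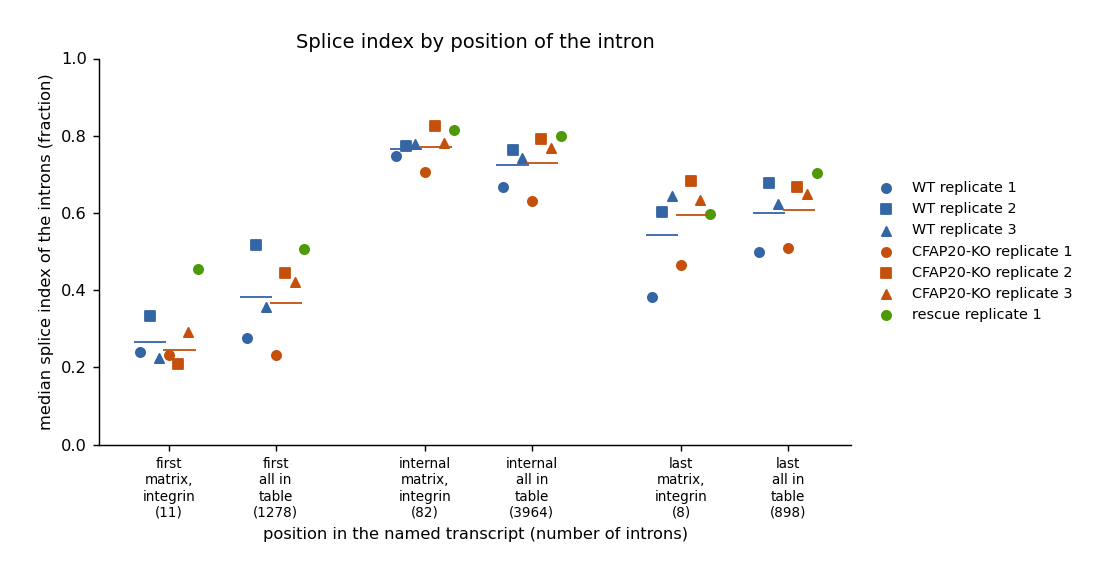
Median splice index (vertical axis, fraction) of first, internal and last introns, for matrix and integrin genes and for all introns of the table, with 1 point per library and lines at the WT and CFAP20-KO means. First introns lie at 0.516 or less and internal introns at 0.631 or more in all 7 libraries.

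Along single genes, the measured introns were followed in order in FN1, ITGA5, THBS1 and ITGA3. Of the MANE Select introns, the table holds 16 of 45 in FN1, 14 of 29 in ITGA5, 14 of 21 in THBS1 and 8 of 25 in ITGA3. Numbers are those of the transcript that the table names. In FN1 the WT means of introns 1, 2, 3, 4 and 5 were 0.30, 0.540, 0.612, 0.726 and 0.801, so the index rose over the first 5 introns. Introns 6, 7, 8 and 9 had 0.853, 0.816, 0.641 and 0.876. Introns 12, 16, 18 and 21 had 0.720, 0.853, 0.890 and 0.766, and introns 28, 44 and 46 had 0.596, 0.839 and 0.883. Intron 8 was therefore a dip between higher neighbours. Introns 12 and 28 were lower by mean than the nearest measured introns, which do not adjoin them. Their WT values ranged from 0.643 to 0.833 and from 0.485 to 0.732.

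ITGA3, the alpha subunit of a laminin receptor, went from 0.423 for intron 4 through 0.502, 0.659 and 0.680 for introns 5, 7 and 8 to 0.614, 0.879, 0.870 and 0.712 for introns 10, 12, 13 and 20. Across the introns of MANE Select transcripts, Spearman's rho between intron number and mean index was 0.905 in ITGA3 (n = 8), 0.485 in FN1 (n = 16), 0.0330 in THBS1 (n = 14) and -0.0593 in ITGA5 (n = 14). These are descriptions, since introns of a gene share their transcript and libraries.

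In ITGA5 the WT means of introns 2, 3, 4, 5 and 6 were 0.669, 0.726, 0.839, 0.866 and 0.806, and those of introns 7, 8, 10, 11 and 12 were 0.769, 0.848, 0.849, 0.610 and 0.514. Introns 16, 19, 21 and 24 had 0.639, 0.402, 0.829 and 0.818. Intron 19, at 0.352, 0.446 and 0.408 in WT, was the lowest measured intron of the MANE Select transcript. It began with GTAAGT, the bases that pair best with U1 snRNA, but its whole 5′ site, with the exonic bases, scored above 52.9% of sites. In THBS1, beside intron 1 of ENST00000397591 (0.585), the WT means were 0.668 for intron 2, 0.821, 0.789, 0.787 and 0.893 for introns 3 to 6 in order, and 0.776 and 0.860 for introns 8 and 11. They were 0.861, 0.761 and 0.912 for introns 12, 13 and 15, 0.637 for intron 16, and 0.832, 0.782 and 0.736 for introns 17, 18 and 21. Introns 1, 2 and 16 were thus its low points.

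**Figure D3:**
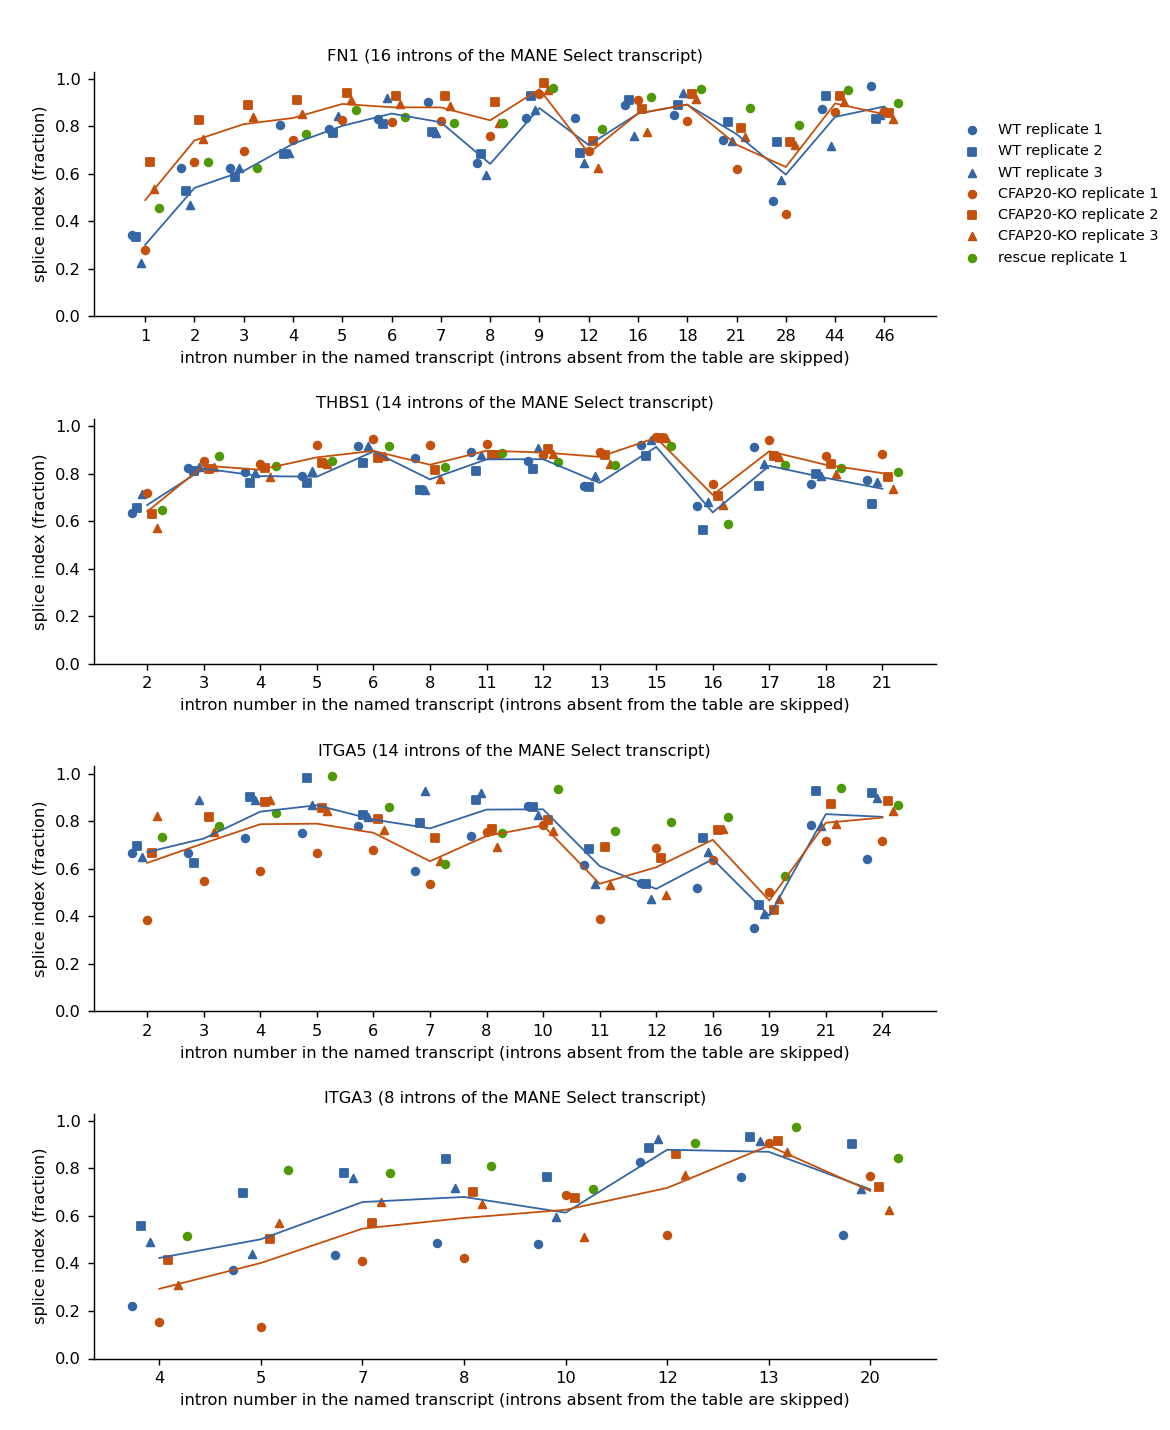
Splice index (vertical axis, fraction) of the measured MANE Select introns of FN1, THBS1, ITGA5 and ITGA3 in order. Introns absent from the splice table are skipped, and numbers are those of the named transcript. Each intron has 1 point per library, and lines run through the WT (blue) and CFAP20-KO (orange) means. In FN1 the CFAP20-KO mean lies above the WT mean from intron 1 to intron 9.

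Features that the rule did not use were set beside the index. Member introns were 85 to 18886 bases long with a median of 734, and the table's median was 707. Spearman's rho with the mean index was -0.04 for length, -0.29 for GC content, 0.27 for the distance from the transcript start to the end of the intron, 0.08 for the score of the 5′ site and 0.06 for that of the 3′ site (n = 101). In the whole table the same values were -0.02, -0.14, 0.48, 0.11 and 0.05. The points share libraries, and many share a gene. GTAAGT stood at the start of 15 of the 99 members with GT and AG ends (15.2%) and of 10.8% of such introns of the table, and GTGAGT at the start of 15 (15.2%) and of 15.9%. Members with GTAAGT had a median index of 0.715 and those with GTGAGT 0.719. Each motif was searched on the strand of the gene at the first 6 bases only.

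Whether the index differed without CFAP20 was then tested on every intron with all 6 WT and CFAP20-KO values. By limma with Benjamini-Hochberg adjustment, 0 of 99 members passed 0.05, and 0 of 6537 introns of the table did (0.0%). The smallest adjusted p of a member was 0.853. Without adjustment 10 of 99 members had p under 0.05, as did 373 of the 6537 introns (5.71%). With a replicate block and each library centred on its median, 34 introns passed (0.52%), and 0 of the 99 members were among them. For the mean index per gene, 0 of 24 member genes and 0 of 2891 genes passed (0.0%), with 3 member genes and 133 genes at an unadjusted p under 0.05. The median change over members was 0.00772 and that over all introns was 0.

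The families are described by their median change, CFAP20-KO mean minus WT mean per intron. It was 0.060 over the 16 introns of fibronectin (13 higher, 3 lower) and 0.040 over the 16 of thrombospondins (15 higher, 1 lower). Over the 3 introns of ADAM proteases it was 0.083, with 2 higher, both of ADAM9, and 1 lower, of ADAM19 (-0.129). It was -0.00973 over 34 integrin introns (13 higher, 20 lower), 8.4e-05 over 14 inhibitor introns (7 higher, 7 lower), -0.00643 over 8 LOX introns (3 higher, 5 lower), -0.075 over 4 laminin introns and -0.037 over 2 collagen introns. Within runs the values moved. For fibronectin the median was -0.018 in KO1 against WT1, and 0.135 and 0.10 in KO2 and KO3 against WT3. For thrombospondins it was 0.039, 0.022 and 0.00636. In the same order, integrins had -0.0405, 0.0135 and 0, LOX introns 0.00222, 0.0834 and 0.00287, and ADAM proteases 0.0562, 0.115 and 0.105. Laminins had 0.0251, 0.0358 and -0.0281, and collagens -0.0258, 0.107 and 0.173. Inhibitors had -0.0190, -0.0168 and -0.0156, lower in each comparison within a run, and 8 of their 14 introns (57.1%) were lower in all 3 and 2 higher, against 18.3% and 27.1% of the table. The 14 introns come from 4 genes, KO2 and KO3 share WT3, and this difference was not tested. The fibronectin median was above 0 in the run of WT3 and below 0 in that of WT1. When each library was left out in turn, the median stayed above 0 for fibronectin (0.0396 to 0.0903), thrombospondins (0.0193 to 0.0570) and ADAM proteases (0.0712 to 0.101). It changed sign for integrins without WT2 or KO1, for LOX introns without WT2, WT3 or KO1, for inhibitors without WT1, WT2, KO2 or KO3, and for collagens and laminins without WT2.

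By position, 11 first introns had a median change of 0, 80 internal introns 0.00702 and 8 last introns 0.021. The table had -0.0079, 0.00438 and 0.000205. In KO1 against WT1 and KO2 and KO3 against WT3, first members had 0, 0 and 0.00102, internal members 0.0168, 0.0294 and 0.00616, and last members 0.0429, 0.0246 and 0.0104. In the table, first introns had -0.0204, 0.0326 and 0.0335, internal introns -0.00699, 0.0288 and 0.0164, and last introns 0, 0.0157 and 0.00836. The CFAP20-KO medians of first, internal and last members, 0.244 ± 0.043, 0.771 ± 0.060 and 0.594 ± 0.114, differed from those of WT by less than the SD of either group.

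A simpler count was read beside the test: introns whose 3 CFAP20-KO values all lay above, or all below, the 3 WT values. There were 12 members above and 3 below, 15 of 99 (15.2%). Of the 6537 introns of the table, 387 lay above (5.92%) and 336 below (5.14%), 11.1% together. Among the 12, 11 came from 5 genes: FN1 (introns 2, 3, 8 and 9), THBS1 (introns 5, 13 and 15), ADAM9 (introns 9 and 10), ITGB1 (intron 10) and LOXL2 (intron 8). Introns of 1 gene are not independent, and none of the 15 passed the test above. Fewer libraries part more easily. Without KO1, 24 members lay above (24.2%) and 4 below (4.04%), where the table had 23.9% and 7.05%. Without WT1, 17 lay above (17.2%) and 15 below (15.2%), where the table had 7.71% and 13.8%. Without WT2 and without WT3, 17 lay above in both, beside 14.3% and 9.67% of the table, and 7 and 4 below, beside 7.45% and 7.77%. Without KO2 and without KO3, 13 and 17 lay above, beside 6.85% and 7.57%, and 6 and 8 below, beside 9.22% and 8.77%. The members' share above was thus near that of the table without KO1. Without WT1 and KO1, 28 members lay above and 16 below, where the table had 26.1% above and 16.1% below. Compared within runs, 30 of 99 members (30.3%) were higher in all 3 CFAP20-KO libraries than in the WT library of their run and 20 (20.2%) lower in all 3, against 27.1% and 18.3% of the table, which is near the background.

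FN1 had the most introns with groups apart, 4 of 16. FN1 intron 2 had 0.625, 0.527 and 0.468 in WT, 0.649, 0.826 and 0.744 in CFAP20-KO, and 0.648 in the rescue. Its groups did not overlap, but KO1 and WT1 of its run lay close together. The change was 0.20 ± 0.079 (SE) with an adjusted p of 0.853 by limma.

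FN1 intron 3 had 0.625, 0.588 and 0.622 in WT, 0.694, 0.891 and 0.840 in CFAP20-KO and 0.626 in the rescue (adjusted p = 0.853). FN1 intron 8, the dip described above, had 0.645, 0.684 and 0.594 in WT and 0.759, 0.901 and 0.814 in CFAP20-KO, with 0.814 in the rescue (adjusted p = 0.853). FN1 intron 9 had 0.833, 0.929 and 0.866 in WT, 0.934, 0.980 and 0.952 in CFAP20-KO and 0.960 in the rescue (adjusted p = 0.853). In each of these 3 introns KO2 was the highest CFAP20-KO library. For FN1 intron 1 the groups overlapped, with 0.344, 0.332 and 0.225 in WT and 0.280, 0.650 and 0.535 in CFAP20-KO.

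The change was uneven along FN1. Over introns 1 to 9 all 9 were higher by mean in CFAP20-KO, with a median change of 0.109, and over the 7 introns from 12 to 46 the median was 0.000397, with 4 higher and 3 lower. This split of the gene was chosen after its values were seen. Within runs, introns 1 to 9 had medians of 0.024 in KO1 against WT1 and of 0.223 and 0.163 in KO2 and KO3 against WT3, and introns 12 to 46 had -0.056, 0.094 and 0.016. The rescue stood above WT2 of its run in all 16 FN1 introns, by a median of 0.067. For the mean over the gene's introns the change was 0.07 ± 0.04 (SE) with an adjusted p of 1 by limma.

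THBS1 showed a smaller shift that was clearest in 1 run. All 15 introns were higher in KO1 than in WT1, 10 of 15 in KO2 than in WT3 and 8 of 15 in KO3 than in WT3. THBS1 intron 13 had 0.747, 0.744 and 0.791 in WT, 0.889, 0.879 and 0.842 in CFAP20-KO and 0.836 in the rescue, and the groups did not overlap (adjusted p = 0.853). THBS1 intron 5 had 0.788, 0.762 and 0.810 in WT and 0.919, 0.845 and 0.840 in CFAP20-KO (adjusted p = 0.892). THBS1 intron 15 had 0.922, 0.874 and 0.941 in WT and 0.952, 0.95 and 0.95 in CFAP20-KO, near the top of the scale in both (adjusted p = 0.902).

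Among the receptors the genes went different ways by mean, up in ITGB1 and down in ITGA5 and ITGA3. In ITGB1, the beta subunit shared by most matrix-binding integrins, 5 of 6 introns were higher in CFAP20-KO, with a median change of 0.062, and of 0.0572, 0.137 and 0.107 within runs. ITGB1 intron 10, at chr10:32920085-32920244, had 0.667, 0.785 and 0.779 in WT, 0.818, 0.963 and 0.931 in CFAP20-KO and 0.917 in the rescue (adjusted p = 0.853). Its neighbour, intron 9, had the largest change by mean of all members, 0.25, but WT3 (0.730) lay above KO1 (0.655), so the groups overlapped (adjusted p = 0.853).

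In ITGA5, 12 of 16 introns were lower by mean and in ITGA3 6 of 8, with median changes of -0.041 and -0.094. Within runs these were -0.0675, -0.00853 and -0.000611 for ITGA5 and -0.0458, -0.00674 and -0.0872 for ITGA3. For the mean over the introns of ITGA5 the change was -0.0287 ± 0.055 (SE), and without KO1 it was 0.00969. ITGA5 intron 10 had 0.865, 0.857 and 0.826 in WT and 0.781, 0.806 and 0.758 in CFAP20-KO, while the rescue, at 0.935, was above all of them (adjusted p = 0.898). In ITGA3 no intron had groups that did not overlap. ITGAE, the other alpha gene, was higher by mean over its 3 introns, by 0.0143 ± 0.071 (SE). The alpha genes thus did not share a direction, and the difference between alpha and beta subunits was not tested. ITGB5, a beta subunit that pairs with the vitronectin receptor alpha chain, had 1 intron, at 0.830, 0.739 and 0.80 in WT and 0.848, 0.821 and 0.718 in CFAP20-KO.

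Of the laminins, LAMC1 intron 4 had the widest gap downward. It had 0.783, 0.791 and 0.795 in WT, 0.591, 0.627 and 0.684 in CFAP20-KO and 0.759 in the rescue, a change of -0.156 ± 0.056 (SE; adjusted p = 0.853). The 3 WT libraries lay close together, and every CFAP20-KO library was below them. The other laminin introns overlapped between groups: LAMB2 intron 2, for instance, had 0.0870, 0.448 and 0.122 in WT and 0.133, 0.136 and 0 in CFAP20-KO. COL4A2 intron 2, of a basement membrane collagen, ranged in WT alone from 0.0161 to 0.548.

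Of the enzymes and inhibitors, ADAM9, a membrane protease that cuts cell surface proteins, had both of its introns apart. ADAM9 intron 9 had 0.783, 0.799 and 0.806 in WT, 0.857, 0.94 and 0.918 in CFAP20-KO and 0.936 in the rescue (adjusted p = 0.853). ADAM9 intron 10 had 0.815, 0.844 and 0.816 in WT, 0.871, 0.931 and 0.921 in CFAP20-KO and 0.844, the value of WT2, in the rescue (adjusted p = 0.853). ADAM19, the other ADAM gene, had 0.429, 0.562 and 0.364 in WT and 0.268, 0.275 and 0.423 in CFAP20-KO.

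LOXL2 intron 8 had 0.417, 0.604 and 0.532 in WT, 0.643, 0.714 and 0.711 in CFAP20-KO and 0.671 in the rescue (adjusted p = 0.853). LOXL2 is a cross-linking enzyme with 3 further introns here, none of which had groups apart. SERPINB8, an intracellular protease inhibitor, had 1 intron with 0.432, 0.442 and 0.556 in WT and 0.542, 0.761 and 0.722 in CFAP20-KO, which overlapped by 1 library.

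**Figure D4:**
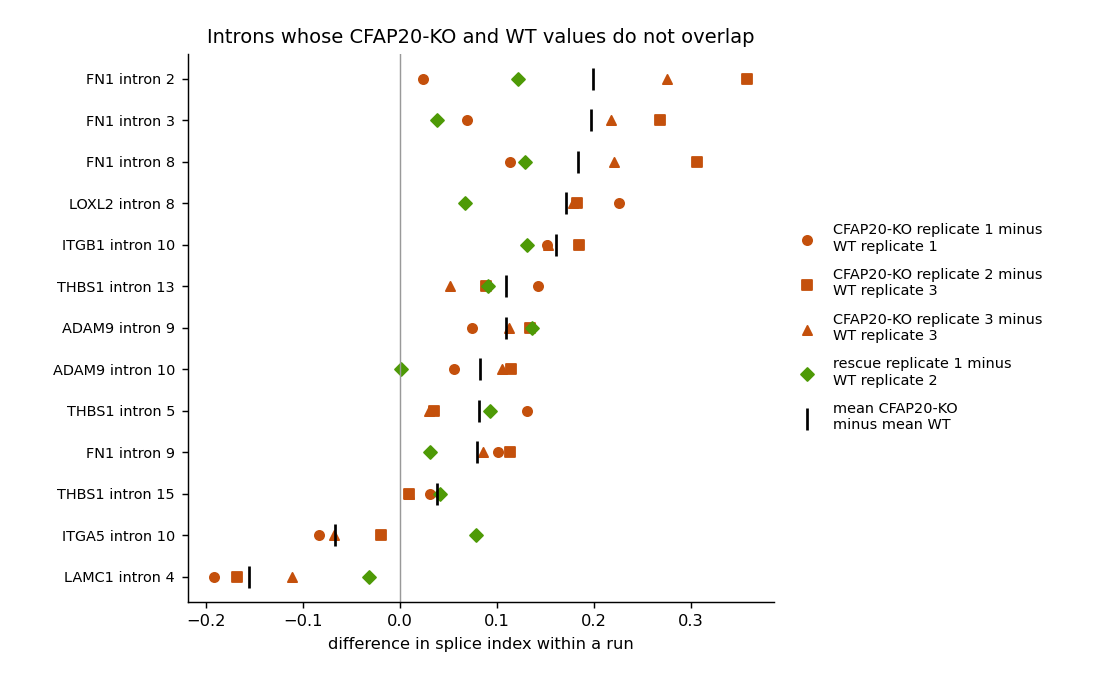
Difference in splice index within a run (horizontal axis) for 13 of the 15 introns whose 3 CFAP20-KO values do not overlap the 3 WT values, with orange points for the CFAP20-KO libraries, green diamonds for the rescue and black bars for the difference of the group means. FN1 introns 2, 3 and 8 lie furthest right for KO2, and the rescue lies on the same side as the CFAP20-KO libraries for FN1 introns 2, 3, 8 and 9.

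The rescue had 1 library, so its values have no replicate check. Against WT2 of its run, 73 of 99 members were higher and 23 lower, with a median difference of 0.041, and over all introns 3799 of 6593 were higher, with a median of 0.014. Of the 11 introns named above with higher CFAP20-KO values, the rescue lay above WT2 in all, from 0.000536 for ADAM9 intron 10 to 0.137 for ADAM9 intron 9. Of those with lower values, LAMC1 intron 4 (0.759 against 0.791) was lower in the rescue than in WT2 and ITGA5 intron 10 (0.935 against 0.857) was higher. All these introns were picked because WT2, with the other WT libraries, lay apart from CFAP20-KO. This favours rescue values on the CFAP20-KO side of WT2, so no conclusion is drawn from them.

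Transcription of the same genes could be read for 2 of the 26, LOX and ITGB5, which lie in deposited windows of coverage around replication origins. In such bulk coverage, fewer cells of a type and less RNA per cell cannot be told apart. LOX, which oxidises lysines of collagen and elastin, had a mean gene body coverage of 17.8, 19.8 and 26.6 in WT and 16.7, 28.7 and 32.4 in CFAP20-KO, so the groups overlapped. ITGB5 had 8.40, 7.13 and 6.54 in WT and 9.36, 7.65 and 7.64 in CFAP20-KO. Neither passed the test over 1708 genes, of which 0 passed (0.0%) and 147 had an unadjusted p under 0.05. On the log2(coverage + 0.0685) scale the change was 0.24 ± 0.35 (SE) for LOX (adjusted p = 0.94) and 0.16 ± 0.25 for ITGB5 (adjusted p = 0.95). The median of all tested genes was 0.16, and the changes of LOX and ITGB5 both lay within their SE of it.

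Along LOX, coverage in the first 2 kb was 50.2, 23.6 and 51.9 in WT and 60.1, 31.9 and 37.7 in CFAP20-KO. In the window centred at 9 kb it was 9.96, 13.6 and 16.0 in WT and 7.71, 23.9 and 23.5 in CFAP20-KO. KO1 and WT1 thus fell most steeply from the start into the body. In ITGB5 the coverage began about 15 kb inside the longest annotated gene model, where the first high window had 53.9, 12.6 and 51.4 in WT and 43.1, 35.6 and 31.4 in CFAP20-KO.

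**Figure D5:**
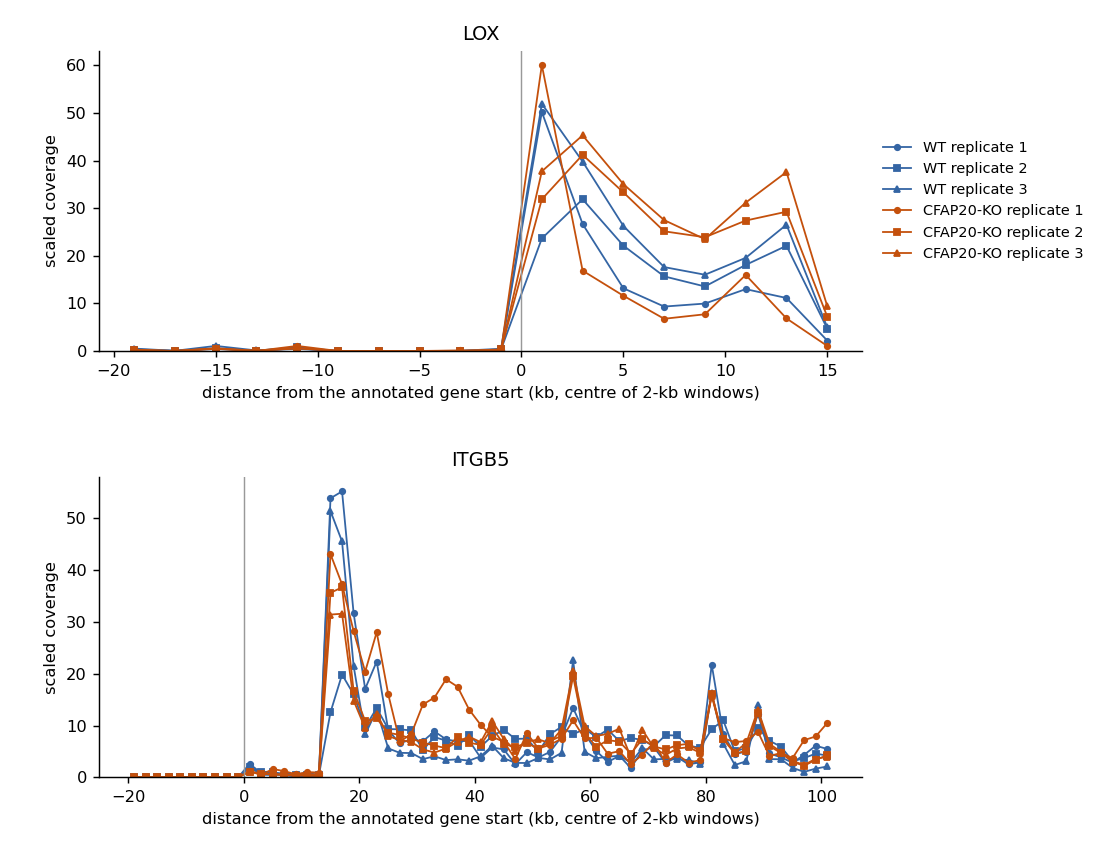
Scaled coverage (vertical axis) in 2-kb windows along LOX and ITGB5, against distance in kb from the annotated gene start, with 1 line per WT (blue) and CFAP20-KO (orange) library. In LOX, KO2 and KO3 lie above the 3 WT libraries from the window at 3 kb onward, and KO1 lies below WT1 in most windows.

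Other genes that work with the members were counted from 3 lists. Of 37 further matrix genes, 9 were in the table with 36 introns, of which 0 passed the test, 2 lay above and 0 below WT in all libraries. Of 28 genes that modify or export collagen, 6 were in the table with 11 introns (0 passed, 0 above, 1 below). Of 29 genes of integrin adhesions, 17 were in the table with 134 introns (0 passed, 9 above, 5 below). These 9 and 5 are 6.72% and 3.73%, near the 5.92% and 5.14% of all introns, and the other 2 lists hold too few to compare. Their median changes were -0.001, 0.026 and 0.017, against 0 for all introns. In KO1 against WT1 they were -0.0263, -0.0303 and -0.00477, and in KO2 against WT3 0.0223, 0.0710 and 0.0613. In KO3 against WT3 they were 0.0252, 0.0180 and 0.0395, where all introns had -0.00667, 0.0248 and 0.0158 in the 3 comparisons.

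The largest changes in the adhesion list had groups that did not overlap, but none passed the threshold. TLN1, which encodes talin, the activator of integrins, had for intron 3 values of 0.421, 0.745 and 0.813 in WT and 0.878, 0.947 and 0.946 in CFAP20-KO (adjusted p = 0.853). TNS3 intron 12, of an adaptor at adhesions, had 0.579, 0.583 and 0.595 in WT and 0.233, 0.162 and 0.50 in CFAP20-KO (adjusted p = 0.853). PXN intron 9, of paxillin, had 0.767, 0.884 and 1 in WT and 0.276, 0.70 and 0.690 in CFAP20-KO (adjusted p = 0.853). In the matrix list, EFEMP1, CCN2 and SPARC led with changes of 0.180, 0.098 and 0.089, and in the collagen list PPIB, P3H4 and CRTAP led with 0.198, 0.190 and -0.127 (adjusted p from 0.869 to 0.918).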

How the data were processed

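RNA of RPE1 cells labelled with 2 mM bromouridine for 30 min was captured and sequenced as paired reads, per the labels' protocols. The submitters' processing notes name hg38, STAR 2.7.7a, SAMtools 1.11, HOMER 4.8.2, R 4.0.5, FastQC 0.11.9 and Trim Galore 0.6.5. The authors deposited the splice index as a fraction per intron, and coverage as signal in 200-bp bins up to 100 kb to each side of replication origins, scaled per library against a reference that is not stated. The depth behind a fraction is unknown, so no counting interval is given. Gene body coverage was averaged over protein-coding genes of at least 3 kb in the bins on their strand.

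The members and gene lists were chosen with earlier results of these data known. Introns were matched to GENCODE 44 with pysam 0.24.0 and pandas 2.3.3 under Python 3.11.15. CFAP20-KO was compared with WT by limma 3.58.1 (statmod 1.5.0, R 4.3.3; trend and robust) on the index of all introns with 6 values, and on log2(coverage + 0.0685), with Benjamini-Hochberg adjustment and a threshold of 0.05; the scripts were tested on simulated data. The pseudocount is the 10th percentile of values above 0. Named introns are the highest and lowest of each family, the members whose groups did not overlap, and all introns of the 5 genes with the most, less items that are not reported here by name; other introns are named as examples chosen after their values were seen. Same-numbered WT and CFAP20-KO libraries deviated together over all introns (r = 0.508, 0.207 and 0.214), so the numbers were taken to pair them for the block. Other pairs deviated together as much (WT3 with KO2 0.250, WT2 with KO3 0.219), and the run puts KO2 with WT3, so the pairing is weak for numbers 2 and 3 and differs from the run. For coverage they did not all (r = 0.835, 0.577 and 0.0252). KO2 and KO3 resembled each other most (r = 0.966 over introns). Alternatives were other scales, centring, filters, a block for the replicate, a run term, intron subsets and leaving out each library.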

Additional observations from a re-analysis of the deposited data

How the results depend on the processing

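Of the recomputed values for the main comparisons, 224 stayed near the reported value and 37 moved. Of those for single introns and genes, 245 kept their direction and 3 changed sign. With a replicate block and with libraries centred on their medians, 17 introns were called higher and 17 lower, none of them members, and 24 gene means higher and 15 lower. The block alone, or a run term, called 0 introns, and the block changed no other call of a member. For coverage, where the numbers did not all pair the libraries, the block called 68 genes higher and 48 lower, the block with centring 21 and 53, the run term 136 and 94, and no filter on low signal 1 lower, none of them LOX or ITGB5. The cause was not tested.

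With 1 value per gene the levels were 0.415 for thrombospondins, 0.684 for inhibitors, 0.631 for ADAM proteases and 0.721 for internal introns, and with internal introns alone 0.810 for ADAM proteases. With transcripts divided into 3 parts by intron rank, the levels were 0.703, 0.748 and 0.754 for the early, middle and late part. First introns were at 0.404 from 1 kb, 0.112 under 1 kb and 0.325 without antisense RNAs, and last introns at 0.327 from 1 kb and 0.776 in MANE Select transcripts. Members with groups that did not overlap numbered 13 to 24 higher and 4 to 15 lower when each library was left out in turn, where the table had 6.85% to 23.9% higher and 7.05% to 13.8% lower. Without WT1 and KO1 they numbered 28 and 16, beside 26.1% and 16.1% of the table.

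The family difference was -0.0175 for fibronectin and 0.0251 for laminins in the run of WT1. In the run of WT3 it was 0.117 for fibronectin, 0.140 for collagens and 0.00665 for thrombospondins. Over all runs, with 1 value per gene, it was -0.0166 for ADAM proteases, a change of sign. The mean change of ITGA5 ranged from -0.0589 without WT1 to 0.00969 without KO1. The log2 change of ITGB5 coverage was -0.028 with centring, with or without the block. The unknown depth per intron limits every index, most of all those from a single intron of a gene.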

Other observations

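Coverage around replication origins also reached 22 genes of these families with no intron in the splice table, of which 15 had enough signal to be fitted and 7 did not (SERPINB3, SERPINB4, ITGB6, SERPIND1, COL21A1, ADAM28 and COL14A1). None of the 15 passed limma's test, with adjusted p from 0.568 to 0.99 over the family genes, and 9 were higher and 6 lower by mean in CFAP20-KO. ADAM12, a protease of the cell surface and matrix, had 1.22, 2.07 and 1.83 in WT and 1.96, 3.56 and 3.90 in CFAP20-KO, and KO1 lay between the WT libraries. ITGAV, the alpha subunit that pairs with ITGB5, had 2.14, 3.30 and 2.78 in WT and 2.55, 4.24 and 4.47 in CFAP20-KO, which overlapped in the same way.

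ADAMTS12 had the most coverage of these 15, with 8.48, 13.4 and 9.18 in WT and 7.80, 14.5 and 16.3 in CFAP20-KO. In ADAMTS14 and ADAMTS15 the highest library was KO1, at 4.12 and 9.92, while KO2 and KO3 had 1.12 and 1.14 for ADAMTS14 and 4.72 and 4.59 for ADAMTS15. In COL13A1 it was also KO1, at 12.4. By mean, ADAM10 and ADAMTS3 were likewise higher in CFAP20-KO, and LOXL4, TIMP4, ITGB4, ADAM23, THBS4 and ADAM22 lower. The library that was highest thus differed between genes of 1 family.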
